A study of Homo sapiens with 2 samples.

Results

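The 324 peaks described here are those of a SOX4 binding map that lie on chromosome 1 with their midpoint from position 142000000 to 150000000 of hg19, whatever their score. They made up 7.71% of the 4201 peaks in the list (95% interval 6.92 to 8.56%) and 56.3% of the 575 peaks on chromosome 1 (52.2 to 60.4%). The stretch runs from the edge of the long-arm heterochromatin through the duplicated band 1q21, and it was split at 144000000 into a first stretch of 2 Mb with 157 peaks and a second of 6 Mb with 167. Each peak was included by its position alone, whatever its width or score, while the region and the split themselves were chosen with earlier results of these data known.

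The peaks came from ChIP-seq, in which DNA bound by a protein is pulled down with an antibody and sequenced, in LN229, an established human glioblastoma cell line. One library was made from LN229 cells transfected with a plasmid for Flag-SOX4-HA, SOX4 carrying a Flag tag and an HA tag, so the map is of overexpressed factor. The control library was made from LN229 cells transfected with GFP-Flag-HA, a tagged fluorescent protein. The same anti-Flag antibody was used for both, per the labels. The series' design text names prostate cells, while its title and the sample labels name glioblastoma, and the title and labels were followed here. Each condition had 1 library. No replicate error can be given, and no test between conditions or between stretches was possible, because peaks of 1 library are not replicates. The intervals below are exact Clopper-Pearson intervals for shares and order-statistic intervals for medians. They cover counting error in this list only and treat neighbouring peaks as independent, which they are not. The read depth is unknown from the peak list. The control library's reads were not analysed here, and its role in the peak calling is not stated in the labels or the file.

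SOX4 is a transcription factor of the SOX family, which binds short sites in the minor groove through an HMG box and bends the DNA. It acts in progenitor cells, among them those of the nervous system. The band 1q21 holds some of the most duplicated sequence of the human genome. NBPF genes there encode proteins built from repeated Olduvai (DUF1220) domains, and NOTCH2NL genes are partial copies of NOTCH2, a receptor that keeps neural progenitors from differentiating. Short reads from such copies can match several places equally well, so where a peak falls among copies depends on how the aligner treats such reads. That setting is not stated in the labels or the file.

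Duplication in the gene families named for this band was checked on reference sequence. Neither the gene counts nor the sequences compared were limited to the band, and the counts cover all of chromosome 1. The RefSeq gene table of GRCh38.p14 lists 21 NBPF genes and pseudogenes on chromosome 1, of which 14 are protein-coding, and 4 NOTCH2NL genes. In the RefSeq promoter windows of the same build, NOTCH2 and NOTCH2NLA were identical at 284 of 285 bases when aligned without gaps. Against NOTCH2NLA, again without gaps, the better matching of the pair of NOTCH2NLB windows was identical at 277 of 283 bases. NOTCH2NLC was identical at 256 of 281 and NOTCH2NLR at 227 of 283. Without gaps, a missing base puts the bases on one side of it out of step, so these counts do not rank the copies by likeness. NOTCH2NLR lacks a g of NOTCH2NLA just before the run described next and otherwise follows its letters there. A run of 141 bases was present letter for letter upstream of NOTCH2, NOTCH2NLR, NOTCH2NLA, NOTCH2NLB and NOTCH2NLC. It is shown in capitals, because it is common to all 5, at the end of windows of 216 bases from a pair of copies. The windows read 5′ to 3′ on the gene's strand, lie upstream of the listed gene start and stop short of it:
NOTCH2NLA: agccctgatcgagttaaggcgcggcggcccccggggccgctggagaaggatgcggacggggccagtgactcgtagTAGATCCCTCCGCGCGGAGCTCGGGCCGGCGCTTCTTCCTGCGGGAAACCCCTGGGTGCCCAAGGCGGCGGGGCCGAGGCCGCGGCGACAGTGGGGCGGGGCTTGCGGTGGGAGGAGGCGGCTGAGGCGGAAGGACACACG
NOTCH2NLC: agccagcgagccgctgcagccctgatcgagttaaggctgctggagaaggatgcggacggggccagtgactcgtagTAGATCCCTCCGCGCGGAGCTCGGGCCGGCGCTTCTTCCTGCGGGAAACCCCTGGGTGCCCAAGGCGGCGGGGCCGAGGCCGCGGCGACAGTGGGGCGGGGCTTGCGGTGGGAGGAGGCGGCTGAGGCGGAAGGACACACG
These sequences describe the gene copies and not the peaks. No peak was matched to a gene, since no annotation or sequence of hg19 was used here and the order of this band differs between builds.

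Peaks were denser in the first stretch than in the second, and their median width and score were higher there. The first stretch held 78.5 peaks per Mb and the second 27.8, a ratio of 2.82 (2.25 to 3.53). Peaks covered 309 kb of the first stretch, or 15.5% of its length, and 210 kb of the second, or 3.50%. All of these lengths count unsequenced bases. The first peak begins at 142535443, and by general knowledge of hg19 the sequence before it is an unsequenced heterochromatin gap. With the length counted from that peak, the ratio of densities was 3.85. This shortens the first stretch only and so can only raise the ratio, since gaps in the second stretch were not located.

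**Figure D1:**
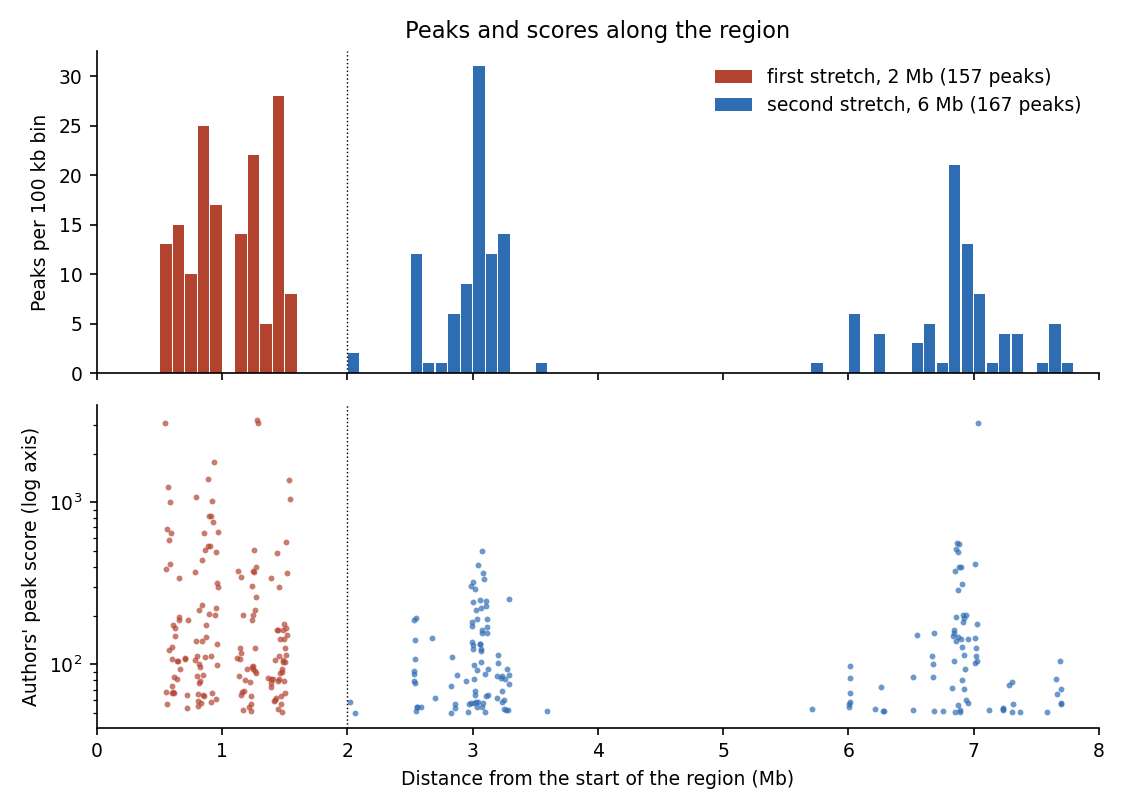
The upper panel gives the number of peaks in each 100 kb bin against the distance from the start of the region in Mb, and the lower panel gives each peak's score on a log axis. The first stretch (red, 157 peaks) holds no peak before 0.5 Mb and then up to 28 per bin, while the second (blue, 167 peaks) holds separate groups with 2.11 Mb free of peaks between them.

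Of the 20 bins of 100 kb in the first stretch, 10 held a peak, and 8 of these held 10 or more. In the second stretch 25 of 60 bins held a peak, and 6 held 10 or more. The fullest bin of each stretch was similar, with 28 peaks from 143400001 to 143500000 and 31 peaks from 145000001 to 145100000. Among the bins that held any peak, the median was 14.5 peaks in the first stretch and 4 in the second. Counted by 1 Mb bins from the start of the region, the first and the second held 80 and 77 peaks and ranked 5 and 6 among the 784 bins of the genome with any peak. The fourth and the seventh followed with 58 and 53 peaks, at ranks 10 and 13. The sixth held 1 peak and the fifth held 0.

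Neighbours no more than 100 kb apart were joined into chains, and 8 chains of at least 5 peaks held 313 of the 324 peaks in 27.7% of the region's length. The 4 largest held 278. The first chain ran from 142535443 to 142967703 with 80 peaks, and peaks covered 43.5% of it. The second ran from 143118805 to 143542266 with 77 peaks over nearly the same length, 423 kb against 432 kb, but peaks covered 28.6%. Both held about 18 peaks per 100 kb (18.5 and 18.2), so the difference in cover lay in the widths, with medians of 1401 and 1091 bp. These 2 chains held every peak of the first stretch.

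In the second stretch the largest chain, the fourth in order, ran from 144823926 to 145293012 and held 72 peaks. Its highest score was 499.7, and peaks covered 19.2% of it. The sixth ran from 148666824 to 149122527 with 49 peaks at 10.8 per 100 kb. It was sparser than the fourth, at 15.3 per 100 kb, yet its median score was higher, 143.4 against 92.9. Of the peaks in the sixth chain 71.4% scored 100 or more, and of those in the first chain 67.5%, against 39.7% of the whole list. The share was 53.2% in the second chain, 45.8% in the fourth, 35.7% in the third and 14.3% in the eighth. No peak of the fifth or seventh reached that score. The other 4 chains of the second stretch were small. The third had 14 peaks from 144528644 to 144701622 and a highest score of 194.5. The fifth packed 6 peaks into 13.0 kb from 148002548 to 148015515, with scores from 54.9 to 97.7. The seventh and eighth, from 149234258 to 149368014 and from 149587337 to 149702726, held 8 and 7 peaks with highest scores of 78.3 and 105.7. Within chains of 5 or more, the first stretch had 183 peaks per Mb of chain and the second 115, a ratio of 1.60 in place of 2.82 over the whole lengths.

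**Figure D2:**
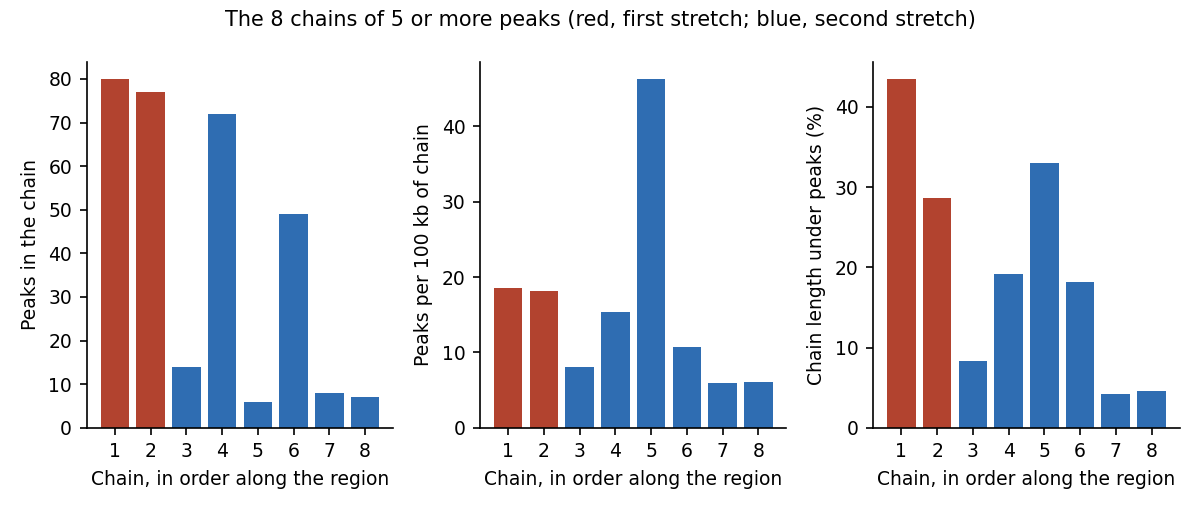
Bars give, for the 8 chains in order along the region, the number of peaks, the peaks per 100 kb of chain and the percent of the chain under peaks (red, first stretch; blue, second stretch). Chains 1, 2, 4 and 6 hold 80, 77, 72 and 49 peaks, and the high density of chain 5 rests on 6 peaks in 13.0 kb.

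Long stretches between the chains held no peak. The longest ran for 2.11 Mb from 145593798 to 147707073, and the peaks on either side of it were weak, with scores of 51.8 and 53.1. The next longest between peaks were 476 kb from 143542267 to 144018570 and 469 kb from 144060016 to 144528643. Between them lay 2 peaks, with scores of 58.3 and 50.03, the second the lowest score in the region. Unsequenced gaps of the assembly were not located, so part of these lengths may be without sequence. Outside the region the nearest peaks on chromosome 1 were far away: a peak of score 3100 from 121484051 to 121485602, 21.05 Mb before the first peak across the unsequenced gap named above, and a peak of score 53.7 from 152035562 to 152036251, 2.33 Mb after the last.

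The score is the authors' value for each peak. Its scale is not stated, and it was used only to describe and rank peaks within this list. In the list as a whole 39.7% of the peaks scored 100 or more, and here 170 of the 324 did (52.5%, 46.9 to 58.02%). In the first stretch 95 of 157 peaks reached it (60.5%, 52.4 to 68.2%), and in the second 75 of 167 did (44.9%, 37.2 to 52.8%). The median score was 113 (interval 104.7 to 148.7) in the first stretch and 86.9 (79.4 to 104.9) in the second. Both pairs of intervals overlap slightly. At the extremes of the score the intervals of the stretches did not overlap. Scores under 60, near the lowest score of the list, were held by 32.4% of the whole list, by 14 peaks of the first stretch (8.92%, 4.96 to 14.5%) and by 49 of the second (29.3%, 22.6 to 36.9%). Scores of 1000 or more were held by 5.59% of the whole list, by 11 peaks of the first stretch (7.01%, 3.55 to 12.2%) and by 1 of the second (0.60%, 0.015 to 3.29%).

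**Figure D3:**
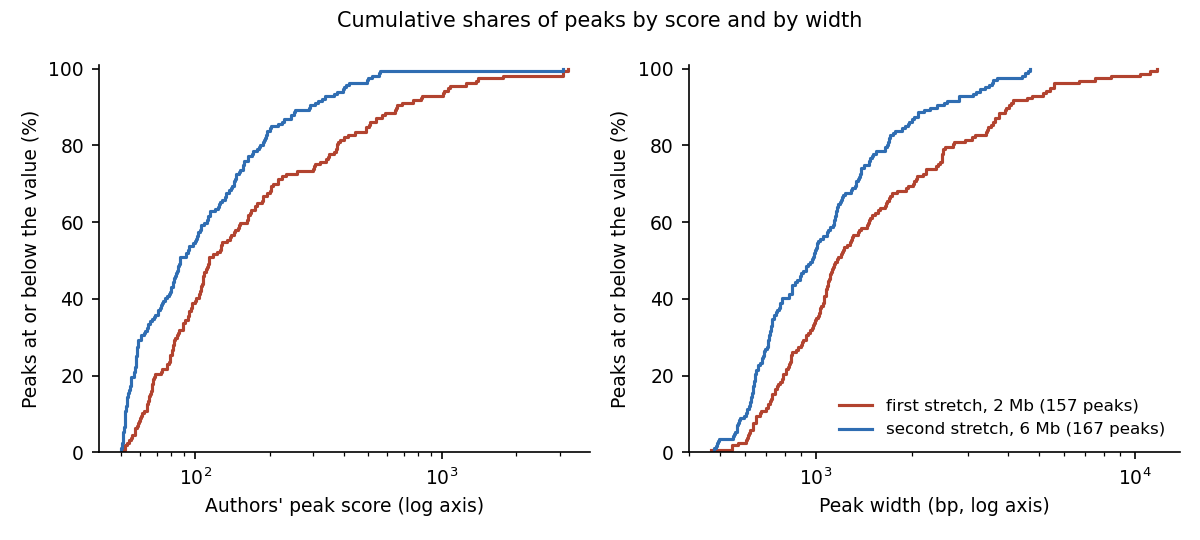
The curves give the percent of peaks at or below each score (left) and width in bp (right), both on log axes, for the 157 peaks of the first stretch (red) and the 167 of the second (blue). The red curve lies to the right over most of both ranges, with medians of 113 against 86.9 in score and 1167 against 974 bp in width.

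Widths followed the same order. The median was 1167 bp (interval 1078 to 1391) in the first stretch, with quartiles of 838 and 2418 bp, and 974 bp (843 to 1092) in the second, with quartiles of 685.5 and 1440 bp. Again the intervals of the medians overlap slightly. Peaks over 2500 bp made up 21.02% of the first stretch (33 peaks) and 9.58% of the second (16 peaks). All 11 peaks of 5000 bp or more lay in the first stretch, 10 of them in the first Mb. They made up 7.01% of that stretch's peaks (3.55 to 12.2%), an interval that includes the 4.67% of the whole list. An excess of such wide peaks over the list was therefore not shown. A count of 0 among the 167 peaks of the second stretch allows a share of up to 2.18%. The widest peak of the first stretch spanned 11788 bp from 142927784 to 142939571 with a score of 1772. The widest of the second spanned 4713 bp from 148883672 to 148888384 with a score of 552.7.

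Both stretches had a higher median width and score than the rest of the list. The 251 other peaks of chromosome 1 had a median width of 710 bp and a median score of 63.8, and 26.7% of them scored 100 or more. All 3877 peaks outside the region had medians of 822 bp and 76.5. Their interval for the median score, 73.6 to 79.51, overlaps slightly with that of the second stretch, 79.44 to 104.9. Of them 38.7% scored 100 or more, inside the second stretch's interval of 37.2 to 52.8%. Toward the top of both scales the stretches parted. The upper quartile of the score was 305.9 in the first stretch, 156.7 in the second and 171.6 elsewhere. Peaks over 2500 bp made up 12.5% of the peaks elsewhere, between the shares of the second and the first stretch. Scores of 1000 or more were held by 223 of the peaks elsewhere (5.75%, 5.04 to 6.53%), again between the 0.60% of the second stretch and the 7.01% of the first, and the interval of the first stretch overlaps this one. No test of these differences was possible with 1 library.

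Width and score rose together. Spearman's correlation was 0.95 in each stretch, over 157 and 167 peaks, against 0.88 over the 3877 peaks elsewhere. The peaks share 1 library and caller, so these are descriptions. At like width up to 2500 bp neither stretch was higher throughout. Peaks over 750 and up to 1000 bp had a median score of 81.4 in the first stretch (28 peaks), 82.06 in the second (28 peaks) and 75.1 elsewhere. Peaks over 1000 and up to 1500 bp had medians of 107, 124 and 123. Those over 1500 and up to 2500 bp had medians of 204.5, 193.3 and 237.3. Among peaks over 2500 bp the order was 650 in the first stretch, 403 in the second and 808 elsewhere. The wide peaks of both stretches had lower median scores than wide peaks of the rest of the list, where widths reached 70685 bp.

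**Figure D4:**
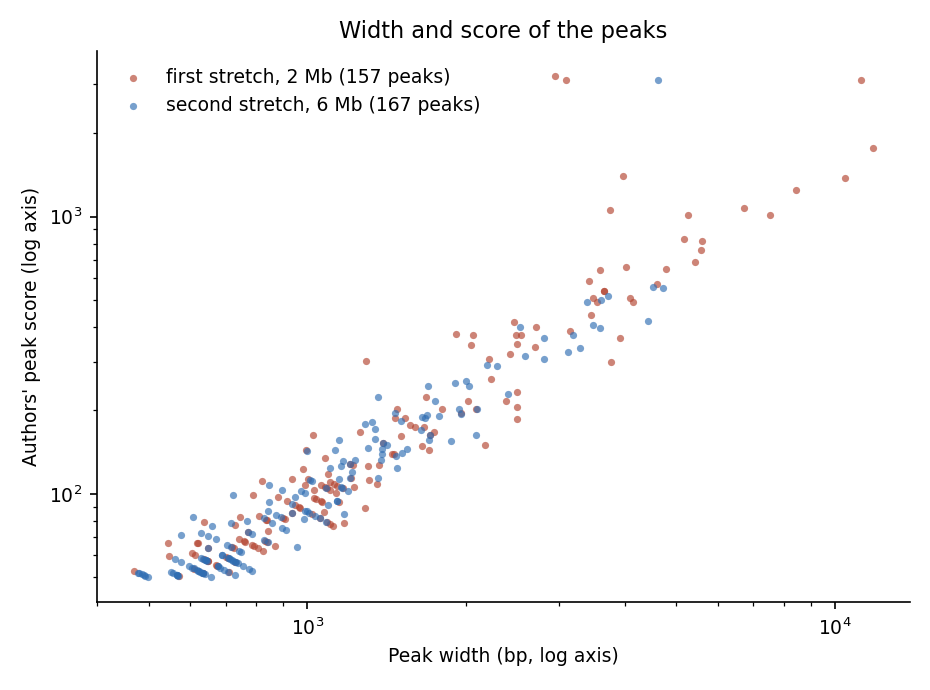
Each point is a peak, with its width in bp and its score on log axes (red, first stretch; blue, second stretch). Most points lie along 1 band in both stretches, with 3 peaks of 2941, 3092 and 4615 bp far above it at scores of 3100 or more.

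Scores of at least 3100 were reached by 2.45% of the whole list and by 4 peaks here, 3 in the first stretch and 1 in the second. Of the 103 such peaks in the list, 100 scored exactly 3100 and 3 scored above it. Scores at this value are therefore ties, and peaks of equal score share a rank below. The highest score of the list, 3220.76, belonged to a 2941 bp peak from 143278239 to 143281179. A neighbour of 3092 bp, from 143281204 to 143284295, began 24 bp after it and scored 3100. The third peak, 11173 bp from 142535443 to 142546615, also scored 3100 and is the first of the region. The fourth, 4615 bp from 149031619 to 149036233, scored 3100 and was the only one of the second stretch above 560. These values do not share 1 relation to width. The peak of 11173 bp was level with the median of the 32 peaks in the list within 20% of its width, also 3100. With so many ties at that value, its score cannot be placed further within its size class. The other 3 stood far above their size classes. The peak of 2941 bp ranked 1 of 221 against a median of 413, that of 3092 bp ranked 3 of 222 against 461, and that of 4615 bp ranked 1 of 112 against 751. Among the 103 peaks of the list at 3100 or more, with a median width of 11890 bp, these 3 were the 2nd, 5th and 13th narrowest. They are the highest-scoring peaks by the naming rule, which in part sets these high ranks.

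The other 6 of the 10 highest-scoring peaks all lay in the first stretch. They scored 1772, 1399 (3960 bp from 142882434 to 142886393), 1375 (10422 bp from 143527110 to 143537531), 1245 (8445 bp from 142565895 to 142574339), 1073 (6707 bp from 142785042 to 142791748) and 1055 (3742 bp from 143538525 to 143542266). The wide ones among them scored low for their size. The peak of 10422 bp ranked 40 of 40 and that of 11788 bp 28 of 29 within 20% of their width. The narrower peaks of 3960 and 3742 bp ranked 16 of 146 and 24 of 154. In the second stretch, apart from the peak of 3100, the highest score of each 1 Mb bin was lower. It was 306 in the third bin (144985814 to 144988621), 499.7 in the fourth (145069635 to 145073235), 53.1 in the sixth (147707074 to 147707691) and 559 in the seventh (148865038 to 148869556). Within 20% of their width in the list, these peaks ranked 198 of 239, 97 of 171, 1092 of 1594 and 93 of 117, all below the middle.

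Some neighbouring peaks were no farther apart than the length of a library fragment, about 300 bp per the labels with adaptors included. In the first stretch the median distance to the previous peak was 1203.5 bp, the shortest was 4 bp, and 38 of 156 distances (24.4%) were at most 300 bp. In the second stretch the median was 1920.5 bp and 22 of 166 distances (13.3%) were that short, close to the 15.7% on other chromosomes. Distances of at most 5 kb made up 84.0% of the first stretch, 65.7% of the second and 50.5% on other chromosomes. Joining peaks at most 5 kb apart left 26 joined stretches from the 157 peaks of the first stretch and 58 from the 167 of the second. The longest joined stretches were of similar length, 85.3 kb from 142882434 to 142967703 and 87.97 kb from 148838428 to 148926400. Their medians differed, at 7.24 kb in the first stretch and 1.05 kb in the second. The density ratio fell to 1.34 (0.81 to 2.17) once peaks were joined in this way, an interval that includes 1.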

How the data were processed

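ChIP-seq peaks of 1 library, LN229 with Flag-SOX4-HA, were analysed. The list gives a chromosome, start, end, name and score per peak. The score was deposited by the authors, and its scale is not stated. The submitters' processing notes name Bowtie 0.12.7, MACS and hg19, and the peak names in the file show that MACS wrote the list. MACS settings, duplicate handling, treatment of reads with several matches, removal of problem regions and the use of the control are not stated in the labels or the file. The other deposited column values are the start and end, from which widths were computed in bp. Positions are printed counted from 1.

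The members, the boundary at 144000000, the gene list and the alternatives were chosen with earlier results of these data known. Peaks were named by rule: the 10 highest scores, the highest score of each 1 Mb bin, the widest peak of each stretch, chains of at least 5 peaks at most 100 kb apart, and the longest stretches without a peak. Gene names fixed for the region were not placed, since no hg19 annotation was used. The counting code was tested on simulated data. Versions were SciPy 1.17.1, NumPy 2.4.6 and pandas 2.3.3 in Python 3.11.15, with figures from matplotlib 3.10.9.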

Additional observations from a re-analysis of the deposited data

How the results depend on the processing

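No paired analysis was possible because there was 1 library per condition. No alternative reversed a direction between the stretches. The number of peaks was 214 at or above the list's median score, 170 at a score of 100 or more, and 193 and 84 with peaks at most 1 and 5 kb apart joined. The density ratio of 2.82 became 3.62 and 3.80 under those score filters, 3.69 and 2.12 with the boundary at 143500000 and 144500000, 3.85 with the length counted from the first peak, and 1.34 with peaks joined over 5 kb, where its interval includes 1. The difference in covered length of 11.95 percentage points became 11.3 and 10.5 under the score filters, 11.2 without scores of 3100 or more, 15.1 and 8.62 with the other boundaries, 17.6 from the first peak, and 12.8 and 18.3 with peaks joined over 1 and 5 kb. The difference in median width of 193 bp became 857 and 6187 bp with that joining. Counting the length from the first peak shortens the first stretch only, because gaps in the second were not located. Joined over 5 kb, the difference in median score went from 26.5 to 191.8 and that in the share of scores of 100 or more from 15.6 to 44.2 percentage points, with the highest score of the joined peaks taken for each. Joined over 1 kb, the difference in that share was 21.4 percentage points. It shrank to 3.88 (interval -12.3 to 20.1) among peaks at or above the list's median score, and to 10.96 with the boundary at 143500000. Chaining over 50 and 250 kb, added after the data were seen, gave 14 and 3 chains of at least 5 peaks in place of 8. Without the read depth, stretches with no peak have no known limit of detection.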

Other observations

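Several of the highest scores lay near the ends of runs of peaks. The region was cut wherever at least 50 kb held no peak, and runs of at least 10 peaks were kept, a choice made after the values were seen. Of 11 peaks scoring 1000 or more in these runs, 6 lay within 20 kb of an end (54.5%, 95% interval 23.4 to 83.3%), against 65 of 258 peaks of lower score (25.2%, 20.02 to 30.95%). The intervals overlap. All 11 lay in the first stretch, while the 258 came from both. The median distance to the nearest end was 4.74 kb for the former and 41.9 kb for the latter. The peaks of 3092 bp at 143281204 and 3742 bp at 143538525 each closed a run, and that of 11173 bp at 142535443 opened one. In the second stretch, the peak of score 3100 from 149031619 to 149036233 was also the last before 85.6 kb without a peak. Its run held 8 peaks and so was not among those kept and counted. By the general knowledge given above, an unsequenced gap lies before the peak at 142535443. Other gaps of hg19 were not located, so whether the other ends are ends of assembled sequence was not tested.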
